A study of Rattus norvegicus with 4 samples.

Results

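The Reg family are small secreted C-type lectins, proteins with a carbohydrate-binding fold, that the gut epithelium and the pancreas release. Their members on the array were taken by gene name, with Pap as the older name of Reg3b and Reg1 that of Reg1a. This gave 5 probes for 5 genes, Reg3b, Reg3g, Reg3a, Reg1a and Reg4, of 35632 gene names on the array, which has 41012 gene probes. Each gene had a single probe with 1 spot. All 5 were bright enough to be kept with 28417 probes in all, which means that the scanner software's flag put them clearly above background on 2 or more arrays, and they carried that flag on all 4. The arrays measured total RNA from the small intestine, without Peyer's patches, of male Wistar rats, an outbred stock. The compost group of 2 rats had 1% (v/v) of compost extract, a warm-incubated watery dilution of fermented compost, in its drinking water, and the control group of 2 rats drank plain water. Both groups started at 3 weeks of age and were kept so for 12 weeks, and the comparison asks how the extract, taken by mouth, changed gene expression in the gut. Which stretch of the small intestine was taken is not given in the labels.

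In mice, Reg3g kills Gram-positive bacteria and Reg3b acts on Gram-negative ones in the layer next to the epithelium, where enterocytes and Paneth cells secrete them. Their genes are switched on there by bacterial signals through the adaptor MyD88 and by the cytokine interleukin 22 through the transcription factor STAT3. Reg1a, also called lithostathine, is best known as a product of pancreatic acinar cells and of regenerating mucosa. Reg4 is made by secretory cells of the mouse gut, among them enteroendocrine and goblet cells.

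The genes of Reg3b, Reg3a, Reg1a and Reg3g lie together on rat chromosome 4, where RefSeq lists 4 protein-coding genes, the pseudogene Reg3b-ps1 and a long non-coding RNA gene in a row. Reg4 lies apart on chromosome 2. The start regions of all 5 are shown for comparison, 250 bases before to 50 after the transcript start, from RefSeq (GRCr8). Whether these sequences bear on the levels was not tested. The windows are chr4:112419526-112419825 on the plus strand for Reg3b, chr4:112484689-112484988 on the minus strand for Reg3g, chr4:112430174-112430473 on the plus strand for Reg3a, chr4:112450216-112450515 on the plus strand for Reg1a and chr2:188507434-188507733 on the plus strand for Reg4. RefSeq lists 2 starts for Reg3a, 27 bases apart, and the downstream one is shown. Capitals mark matches on either strand to 2 motifs. ATAAAA resembles the TATA box. TTCNNNGAA is the spaced palindrome that STAT factors recognise. No matches of the 2 overlapped.
Reg3b: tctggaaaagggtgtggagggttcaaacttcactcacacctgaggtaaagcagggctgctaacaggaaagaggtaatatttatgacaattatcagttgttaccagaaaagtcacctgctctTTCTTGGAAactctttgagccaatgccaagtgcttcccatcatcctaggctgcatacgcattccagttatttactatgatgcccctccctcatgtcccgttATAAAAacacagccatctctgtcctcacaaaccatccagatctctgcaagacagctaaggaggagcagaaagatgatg
Reg3g: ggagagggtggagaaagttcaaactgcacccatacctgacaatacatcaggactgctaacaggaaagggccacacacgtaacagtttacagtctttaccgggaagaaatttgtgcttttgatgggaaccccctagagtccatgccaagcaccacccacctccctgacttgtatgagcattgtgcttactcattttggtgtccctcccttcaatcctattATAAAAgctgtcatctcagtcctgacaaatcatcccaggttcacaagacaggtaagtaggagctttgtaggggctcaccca
Reg3a: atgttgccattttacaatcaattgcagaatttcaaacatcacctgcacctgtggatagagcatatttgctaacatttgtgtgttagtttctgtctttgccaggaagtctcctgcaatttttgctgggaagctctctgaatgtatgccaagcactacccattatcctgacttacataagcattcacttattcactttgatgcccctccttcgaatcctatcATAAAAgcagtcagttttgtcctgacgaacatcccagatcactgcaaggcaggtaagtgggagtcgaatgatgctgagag
Reg1a: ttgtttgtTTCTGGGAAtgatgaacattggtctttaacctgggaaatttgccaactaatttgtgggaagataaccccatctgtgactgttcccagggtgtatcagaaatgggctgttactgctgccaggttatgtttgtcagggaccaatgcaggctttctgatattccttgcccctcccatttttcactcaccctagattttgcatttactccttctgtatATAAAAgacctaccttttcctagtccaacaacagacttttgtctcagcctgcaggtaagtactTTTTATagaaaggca
Reg4: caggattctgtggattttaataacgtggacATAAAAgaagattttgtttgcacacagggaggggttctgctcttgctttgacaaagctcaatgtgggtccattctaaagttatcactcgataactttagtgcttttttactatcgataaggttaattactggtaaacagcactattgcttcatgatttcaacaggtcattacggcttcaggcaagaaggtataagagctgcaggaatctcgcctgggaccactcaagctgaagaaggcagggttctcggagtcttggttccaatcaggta

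Counted from the start site, ATAAAA lay at -28 in Reg3b and in Reg1a, at -30 in Reg3a and at -31 in Reg3g. Reg1a had a second match at 36 on the opposite strand. From the upstream start of Reg3a, its match lay at -3. In Reg4 the motif lay at -220. It was found in 20.4% of 27457 promoter windows of this length. TTCNNNGAA matched at -129 in Reg3b and at -242 in Reg1a, and it was found in 8.68% of the windows. The windows of Reg3g, Reg3a and Reg4 held no match to these letters. In pairwise global alignments the 3 Reg3 windows were identical at 69.4% to 71.4% of the aligned bases. Reg3a with Reg1a lay in that range, at 70.8%, and the other pairs that include Reg1a or Reg4 ran from 57.8% to 62.8%. These are descriptions of letters, and binding was not measured.

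All 4 arrays lay on 1 slide, with the controls at the lower positions, and the effect of position on the slide and that of the extract cannot be told apart. The median processed intensity of gene spots was 113 and 80.8 on the compost arrays and 88.4 and 87.2 on the control arrays, and 66.5% to 71.0% of gene spots were well above background. Levels below are spot intensities divided by the 75th percentile of their array (relative level) or the log2 of that. Markers bore out the labelled tissue: the enterocyte lipid carrier Fabp1 had log2 levels of 8.55 and 8.82 in compost and 8.96 and 8.95 in control, and the ileal bile acid carrier Fabp6 9.46 and 9.93 in compost and 9.87 and 9.86 in control.

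None of the 5 Reg transcripts passed the test between compost and control rats, although all 5 had a higher mean in compost. Their log2 differences ran from 0.51 to 1.63. The 4 clustered genes were lowest on the array of control rat 1, which was lowest for 24.2% of all kept probes. That count was made with the levels already seen, and Reg3a was dim. Reg3g and Reg1a had the widest differences, 3.03-fold and 3.09-fold, and also the widest spread between rats drinking plain water. In limma, with Benjamini-Hochberg adjustment over 28417 probes, the adjusted p was 1.00 for each, and 0 of the 5 were called where 0% of all probes were called, higher or lower. At an unadjusted p under 0.05, 0 of the 5 and 3.21% of all probes stood out.

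Reg3g, the lectin against Gram-positive bacteria, had relative levels of 276 and 272 in the compost rats and 35.1 and 233 in the control rats. Both compost values exceeded both control values, and control rat 1 lay far below the other 3. The gap from the nearer control rat to the compost rats was 0.22 on the log2 scale. The log2 level averaged 8.10 ± 0.01 in compost and 6.50 ± 1.93 in control (SD, n = 2 each). The log2 difference was 1.60 ± 0.91 (SE, limma adjusted p = 1.00), with a 95% interval of -0.81 to 4.00. The control rats differed 6.64-fold from each other, a spread reached by 0.433% of all probes kept. The compost rats differed 1.01-fold. Without control rat 1 the log2 difference was 0.23, and without control rat 2 it was 2.96 (limma adjusted p = 0.151).

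Reg3b, known first as pancreatitis-associated protein, had relative levels of 450.5 and 528 in compost and 236 and 467 in control. The groups overlapped, since control rat 2 lay above compost rat 1, and control rat 1 was again the lowest. The log2 level averaged 8.93 ± 0.16 in compost and 8.37 ± 0.70 in control (SD, n = 2 each). Their difference was 0.56 ± 0.37 (SE, limma adjusted p = 1.00), with a 95% interval of -0.43 to 1.54. With quantile scaling the groups no longer overlapped and the difference was 0.65, and without control rat 1 it was 0.06. The spots of Reg3b and Reg3g were bright enough that Feature Extraction took them from the low-sensitivity scan on every array and scaled them up. The mean signal of Reg3b stood at 73.0% and 64.1% of the saturation limit on the compost arrays and at 30.4% and 58.9% on the control arrays, with no saturated pixel, and whether the scale is linear there was not tested.

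**Figure D1:**
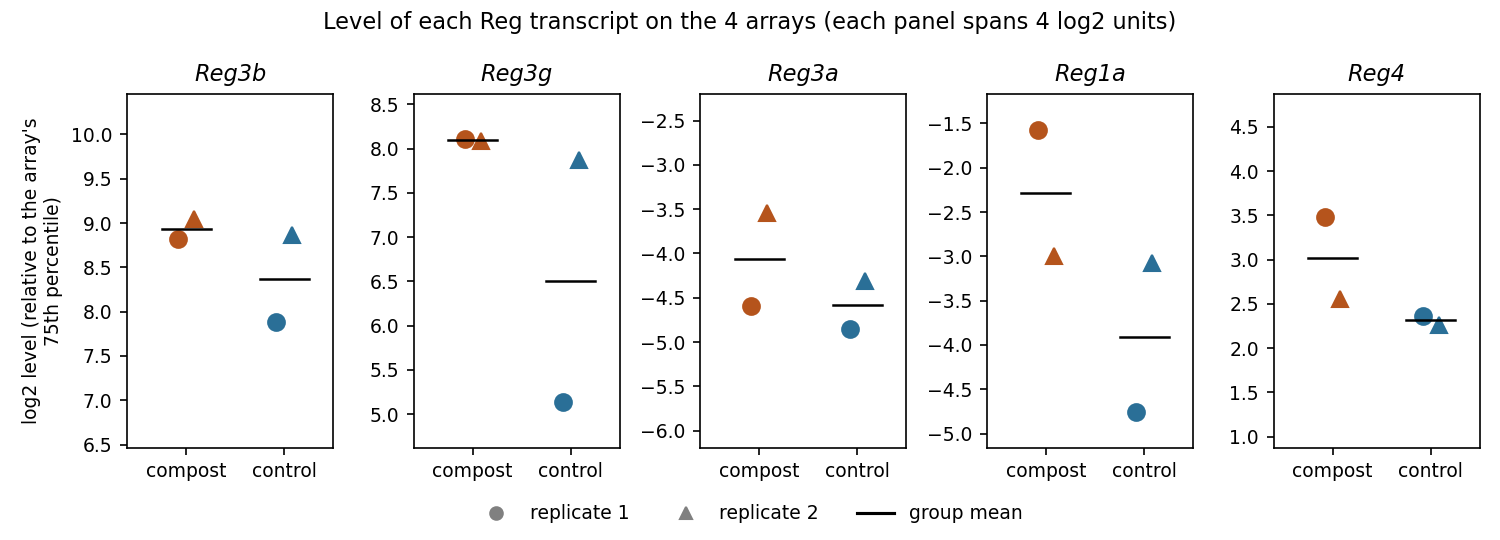
Log2 level of the 5 Reg transcripts on each array, with compost left and control right in each panel. Points are single rats, lines are group means, and every panel spans the same number of log2 units. Control rat 1 is the lowest point for Reg3b, Reg3g, Reg3a and Reg1a, while for Reg4 compost rat 1 stands above the other 3.

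Reg3a, the relative of the lectin that human gut secretes, was dim. Its relative level was 0.0414 and 0.0859 in compost and 0.0347 and 0.0503 in control. Compost rat 1 lay below control rat 2, so the groups overlapped. The raw spot signal was 1.70 and 1.97 times the local background in compost and 1.49 and 1.69 times in control. For control rat 1, the lowest, the scanner software gave a signal error of 17.4%. For compost rat 1, the next lowest, it gave 13.2%. The log2 level averaged -4.07 ± 0.74 in compost and -4.58 ± 0.38 in control (SD, n = 2 each). The log2 difference was 0.51 ± 0.42 (SE, limma adjusted p = 1.00), with a 95% interval of -0.60 to 1.63. It was 0.10 with normexp, another background correction, and -0.014 without compost rat 2.

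Reg1a, the lithostathine gene, had relative levels of 0.337 and 0.125 in compost and 0.0371 and 0.119 in control. Both compost values exceeded both control values, but compost rat 2 and control rat 2 were only 0.07 apart on the log2 scale. High and low ends were each set by 1 rat, compost rat 1 and control rat 1. The log2 level averaged -2.29 ± 1.01 in compost and -3.91 ± 1.19 in control (SD, n = 2 each). The log2 difference was 1.63 ± 0.74 (SE, limma adjusted p = 1.00), with a 95% interval of -0.33 to 3.59. It was 0.79 without control rat 1 and to 0.91 without compost rat 1, against 2.34 without compost rat 2 and 2.47 without control rat 2. Raw signal over local background was 5.19 and 2.39 in compost and 1.55 and 2.25 in control, and with normexp the difference was 0.90.

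Reg4 had relative levels of 11.2 and 5.86 in compost and 5.16 and 4.81 in control. Here the control rats lay close together, 1.07-fold apart, and compost rat 1 stood above the other 3. The log2 level averaged 3.02 ± 0.66 in compost and 2.32 ± 0.07 in control (SD, n = 2 each). Their difference was 0.70 ± 0.35 (SE, limma adjusted p = 1.00), with a 95% interval of -0.23 to 1.63. It was 0.23 without compost rat 1 and 1.17 without compost rat 2.

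By counts, 3 of the 5, Reg3g, Reg1a and Reg4, had both compost values above both control values, where 12.4% of all probes did. The gaps of these 3 were 0.07 to 0.22 on the log2 scale. A higher compost mean was found for 5 of 5, against 46.2% of all probes, and a mean difference of at least 1 log2 unit for 2 of 5, Reg3g and Reg1a, against 1.12%. With 2 rats a group, an exact permutation test cannot give a two-sided p below 0.333, so none is given for single genes. Probes for Reg3b, Reg3g and Reg3a may share target sequence with each other and with Reg3b-ps1, and cross-hybridisation was not tested here.

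**Figure D2:**
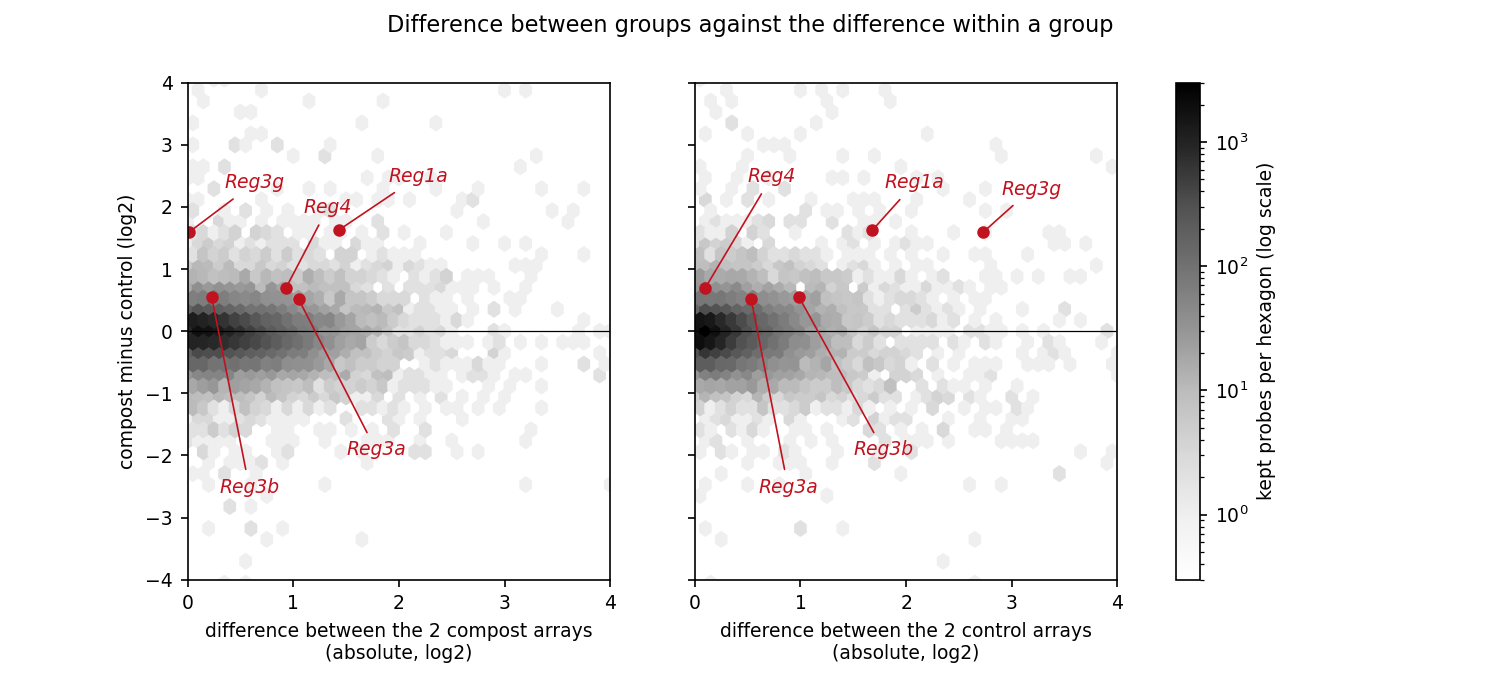
Compost minus control (log2, vertical) against the absolute log2 difference between the rats of one group (horizontal), for compost in the left panel and control in the right. Shading counts probes kept, of which 43 lie outside the left panel and 51 outside the right one. Reg3g sits at the left edge among compost rats (0.02) and far to the right among control rats (2.73), while Reg4 shows the opposite order (0.93 against 0.10).

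Over the arrays, control rat 1 was lowest for 4 of the 5 Reg transcripts and control rat 2 for 1 of 5, whereas compost rat 1 was highest for 3 of 5. Among all kept probes control rat 1 was lowest in 24.2%, control rat 2 in 14.1% and compost rat 1 highest in 27.4%. This tally was made after the levels had been seen. The profiles of Reg3b and Reg3a, centred on their means, were the closest pair, at a root mean square distance of 0.33 log2 units over the 4 arrays, and Reg3g and Reg4 were the farthest apart, at 1.14.

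Each Reg profile was also matched to the nearest named genes with a range of at least 0.5 log2 units, among 5166 candidates. For Reg3b these were Bex1, Fdxacb1 and Sipa1l3, at distances of 0.06 to 0.07 log2 units. For Reg3g they were Epha5 (0.13), Pla2g2d (0.19) and Hoxb7 (0.26), of which Epha5 and Pla2g2d were well above background on 3 of 4 arrays. The nearest to Reg3a were Rap2b, Notch2 and Sag, at 0.06 to 0.13, and those to Reg1a were Fcgr3a, Ly6h and Csta, at 0.27 to 0.31. Sipa1l3 and Ly6h were flagged above background on only 2 arrays and Sag on 3. Reg4 lay nearest to Anxa3, Ms4a6bl1 and Ifitm3, at 0.04 to 0.05. With 4 arrays such closeness describes these rats and nothing more.

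Genes of the pathway that switches Reg3 genes on, from interleukin receptors to MyD88, STAT3 and NF-kB, were read from a list of 43. Of these, 29 were measured, 22 with a higher and 7 with a lower mean in compost, where 46.5% of all genes had a higher one, and 0 passed in either direction where 0% of all genes passed. The compost values exceeded both control values in 8 of 29, against 12.7% of all genes, and below in 2 of 29, against 15.2%. The median log2 difference was 0.14, against -0.02 over all 24315 genes, and ran from 0.06 without control rat 1 to 0.30 without compost rat 2. The 4 members with the smallest unadjusted p were the lipoprotein receptor gene Tlr2 (log2 difference 1.13 ± 0.27 SE, limma adjusted p = 1.00), interferon gamma, Ifng (0.92 ± 0.24), the lipopolysaccharide receptor gene Tlr4 (0.53 ± 0.22) and Ripk2, the kinase below the NOD receptors (0.35 ± 0.18). For Tlr2 the log2 levels were 2.02 and 1.99 in compost and 0.57 and 1.18 in control, so both compost rats were the higher ones. Given after their values were seen, Stat3 had log2 levels of 3.04 and 3.02 in compost and 2.93 and 2.98 in control, Myd88 0.09 and -0.74 in compost and -0.53 and -0.31 in control, and Il22ra1, the epithelial interleukin 22 receptor, -3.28 and -2.90 in compost and -3.02 and -3.13 in control. For Myd88 and Il22ra1 the groups overlapped. Socs3, a feedback target of STAT3, had -2.63 and -3.47 in compost and -3.86 and -3.55 in control. Il22, Il17a and Il17f themselves matched no analysed probe by name. The probes of Il6, Il23a, Il12b, Il11 and Tnf were not well above background on 2 arrays. None of these cytokines is therefore among the 29 measured.

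**Figure D3:**
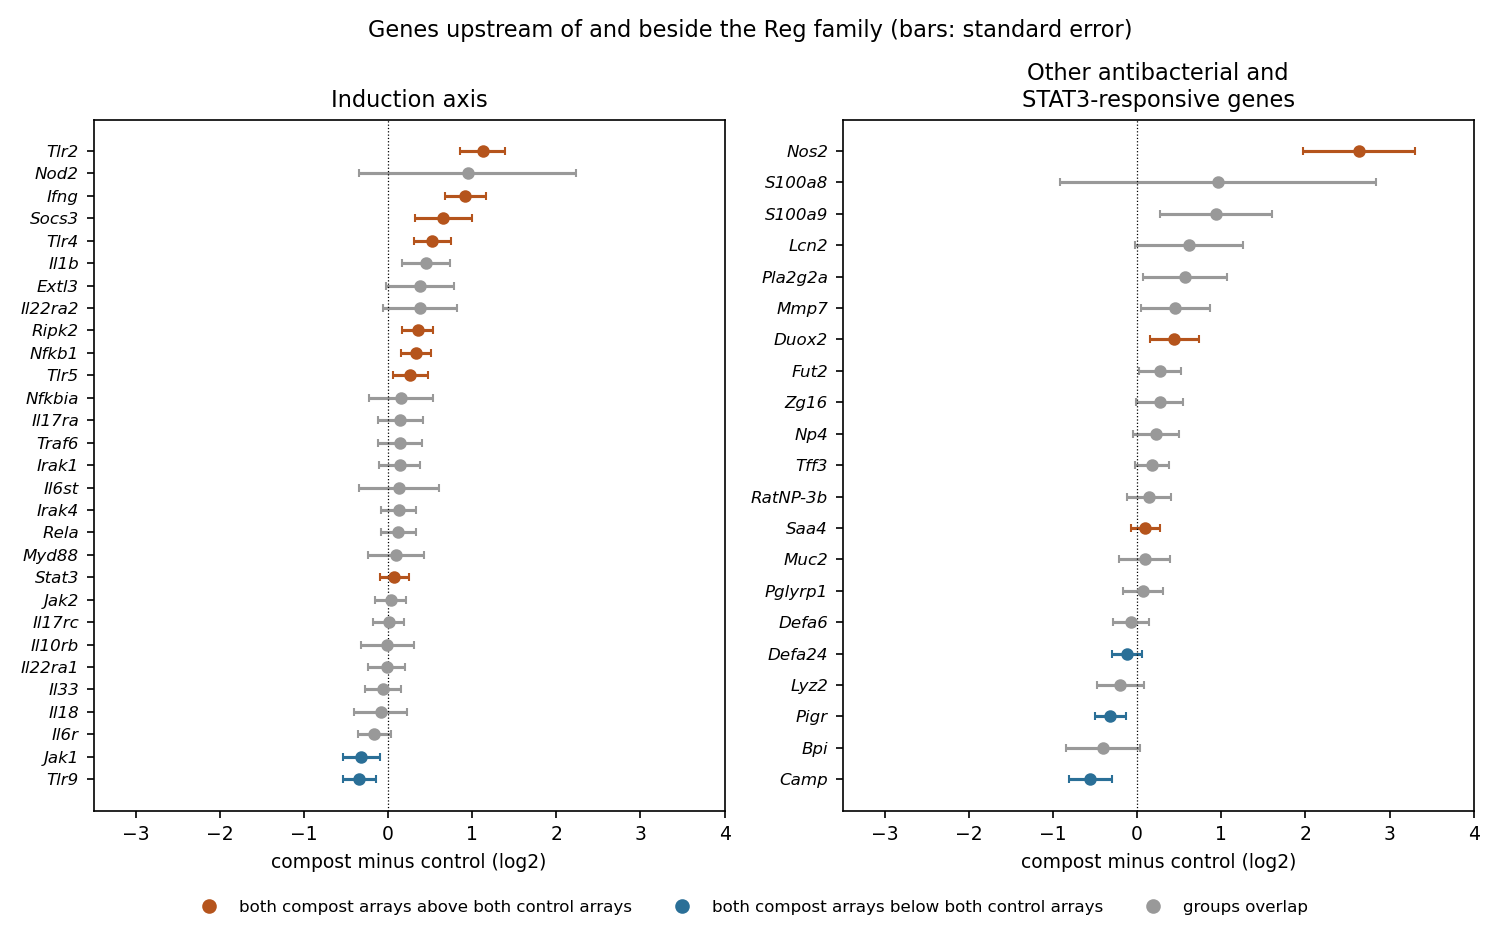
Compost minus control (log2) for the measured genes of the induction axis (left) and of the other antibacterial and STAT3-responsive genes (right), with the standard error of the limma model as bars. Colours show whether the compost values exceed, or stay under, both control values. The groups overlap for most genes of both panels (grey), and Nos2 at 2.64 is the farthest from 0.

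Other secreted antibacterial and STAT3-responsive genes of the epithelium numbered 21 measured of 44 listed, with 15 higher and 6 lower. None passed in either direction, where 0% of all genes passed. The compost values exceeded both control values in 3 of 21 and were below in 3 of 21, against 12.7% and 15.2% of all genes. The median log2 difference was 0.18, and -0.06 without control rat 1. The 4 with the smallest unadjusted p were Nos2, the inducible nitric oxide synthase (2.64 ± 0.66 SE, limma adjusted p = 1.00), the cathelicidin gene Camp (-0.56 ± 0.25), Pigr, the transporter of IgA (-0.32 ± 0.18), and Duox2, a peroxide-making oxidase (0.44 ± 0.29). Nos2 was flagged above background in both compost rats and in 1 control rat. Control rat 1 was the lowest of the 4 arrays in 10 of these 21 genes, against 24.5% of all genes. It was the highest in 2 of 21, against 22.3%. Chosen after their values were seen, Pla2g2a, the secreted phospholipase of Paneth cells, had log2 levels of 7.19 and 6.55 in compost and 5.66 and 6.94 in control. Mmp7, the matrilysin of Paneth cells, had 6.07 and 5.63 in compost and 4.88 and 5.91 in control, and the siderophore-binding Lcn2 had -3.13 and -3.75 in compost and -4.95 and -3.16 in control. In all 3, control rat 1 lay below the other rats and control rat 2 within the range of the compost rats. Bpi went the other way and was highest in control rat 1. Its log2 levels were -4.92 and -4.31 in compost and -3.68 and -4.74 in control. The alpha-defensin gene Defa24 had log2 levels of 8.88 and 8.98 in compost and 8.99 and 9.11 in control.

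**Figure D4:**
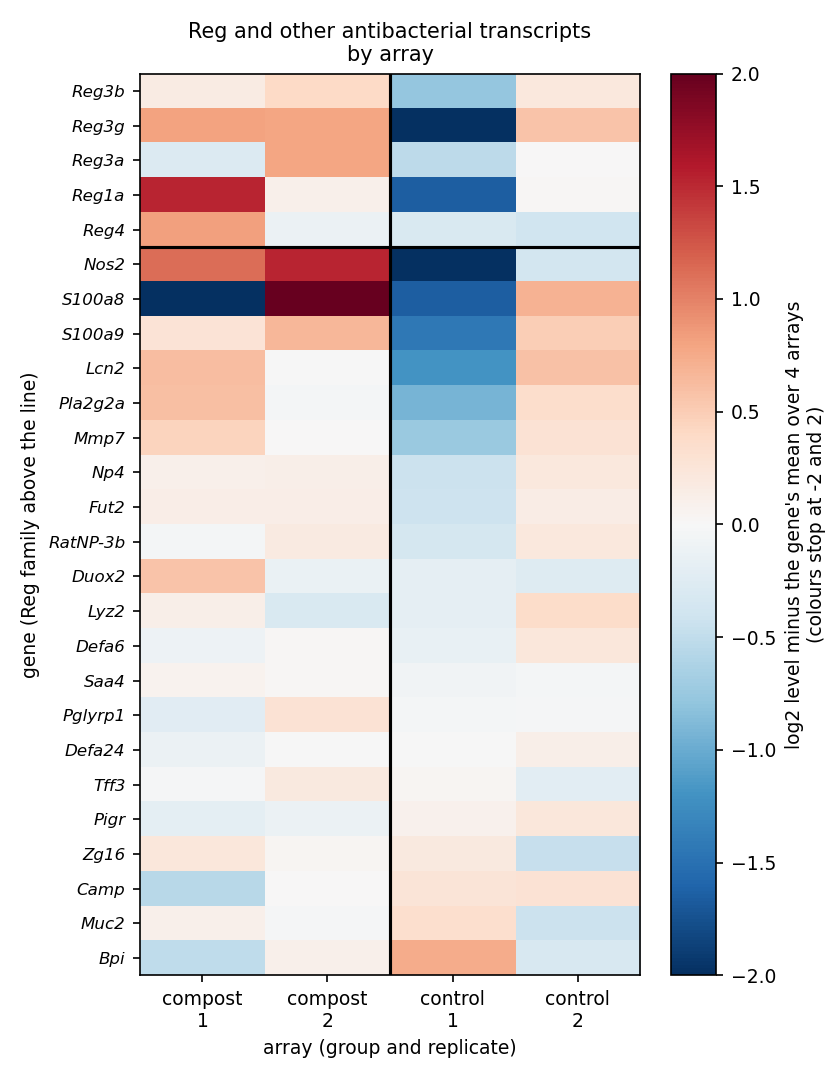
Log2 level minus the gene's own mean over the 4 arrays, for the 5 Reg transcripts (above the line) and the other antibacterial genes, ordered by control rat 1. Columns are single rats, compost left of control. The column of control rat 1 is dark blue for Reg3g, Reg1a, Nos2 and S100a8, of which S100a8 is lower still in compost rat 1, and 4 of the 5 Reg rows are lowest there.

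Markers of cells that make Reg proteins, and of other cells the tissue could hold, had the following values, and their part in the Reg values was not tested. In bulk tissue, fewer cells of a type and less RNA per cell cannot be told apart. For all marker lists, the share of all genes with a higher mean in compost was 46.5%. Paneth cell markers were higher in 6 of 10 measured, and their summed relative level was 1506 and 1455 in compost and 1388 and 1750 in control. Control rat 1 was lowest in 7 of these 10, against 24.5% of all genes. It was highest in 1 of 10, Guca2b, which had the widest difference of the list. Guca2b had log2 levels of 3.56 and 4.01 in compost and 6.07 and 4.17 in control. Lyz2, Defa24, Defa6, Np4, Pla2g2a and Mmp7 are also in the antibacterial list above, so the tallies of both lists overlap. The median log2 difference of the Paneth markers was 0.12, and -0.11 without control rat 1. The 3 highest Paneth markers were Defa6, Defa24 and Lyz2. Goblet cell markers were higher in 11 of 13 (median 0.09, and -0.04 without control rat 2), led in level by Tff3, Clca1 and Zg16, and summed to 1216 and 1227 in compost and 1229 and 998 in control. Enteroendocrine markers were higher in 17 of 23 (median 0.17), led in level by Vil1, Sct and Chgb, and summed to 331 and 375 in compost and 335 and 293 in control, with Pax4 and Insm1 not kept for dimness. Vil1, the brightest of them, is a brush border gene that the absorptive enterocyte list also holds. Without it the enteroendocrine sum was 260.4 and 289 in compost and 233 and 207 in control. Compost values exceeded both control values in 6 of the 23 enteroendocrine markers, against 12.7% of all genes. They were below in 2 of 23, against 15.2%. The enteroendocrine list also shares Sct, Gip and Cck with the proximal list below, and Nts, Pyy and Gcg with the distal one. Muc2, Tff3 and Zg16 are in both the goblet and the antibacterial list.

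Acinar cells of the pancreas are another source of Reg1a and Reg3b, and their markers were higher in 9 of 18 measured and lower in 9. The compost values exceeded both control values in 5 of 18, against 12.7% of all genes. Below both they were in 4 of 18, against 15.2%. Their summed level was 17.9 and 20.5 in compost and 18.4 and 17.0 in control, with Spink1, Cela1 and Zg16b the highest in level. Most of that sum came from these genes, so it says little of the dimmer enzyme genes named below. Spink1 alone had log2 levels of 3.14 and 3.36 in compost and 2.96 and 2.73 in control. The median log2 difference of the acinar list was -0.05, and 0.24 without control rat 1. The members named next were chosen after their values were seen. The trypsinogen gene Prss1 had the widest difference of the list, with log2 levels of -2.76 and -2.77 in compost and -5.70 and -4.00 in control, so that both compost rats were higher and control rat 1 was lowest, as for Reg1a. Its log2 difference was 2.08 ± 0.59 (SE, limma adjusted p = 1.00), and it was flagged above background in both compost rats and in 1 control rat. Ctrb1 went the other way, with log2 levels of -1.99 and -1.71 in compost and -1.58 and -1.36 in control. The enzyme genes Pnlip, Cpa1, Cpb1 and Clps were not well above background on 2 arrays, and the amylase gene Amy2 had log2 levels of -3.43 and -3.85 in compost and -2.20 and -3.91 in control. Stomach markers were 4 higher of 5 measured and summed to 2.51 and 1.74 in compost and 1.73 and 2.21 in control, with Pgc, Tff1 and Chia the highest.

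Absorptive enterocyte markers were lower in 23 of 25 measured, and the compost values were below both control values in 13 of 25, against 15.2% of all genes. The median was -0.41, and -0.15 without compost rat 1. They summed to 2219 and 2921 in compost and 3554 and 3034 in control, and were led by Krt20, Fabp1 and Fabp2. Control rat 1 was the highest of the 4 arrays in 18 of the 25, against 22.3% of all genes. Proximal small intestine markers were lower in 10 of 14, led by Fabp1, Sct and Ada, and summed to 511 and 634 in compost and 681 and 645 in control. Their compost values were below both control values in 6 of 14 and above in 2 of 14, against 15.2% and 12.7% of all genes. The enterocyte list also holds Fabp1, Lct and Slc2a5, and Fabp1 made up most of the proximal sum. The median of the proximal markers was -0.35, but -0.015 without control rat 1 and -0.69 without control rat 2. The distal ones were 8 higher of 14 (median 0.06, and -0.11 without compost rat 2), led by Fabp6, Guca2a and Slc51a, and summed to 1363 and 1850 in compost and 1757 and 1681 in control. Leukocyte markers were higher in 18 of 20, and the compost values exceeded both control values in 8 of 20, against 12.7% of all genes. Their median was 0.59, but 0.35 with normexp and 0.26 over members flagged above background on all 4 arrays. They were led by Cd74, Cd3d and Cd3g, and summed to 298 and 359 in compost and 324 and 279 in control. S100a8 and S100a9 are in both the leukocyte and the antibacterial list. Smooth muscle markers were higher in 6 of 9 (median 0.10, and -0.15 without compost rat 1), led by Actg2, Synm and Des, and summed to 173 and 173 in compost and 152 and 167 in control. None of these 10 lists held a gene that passed.

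**Figure D5:**
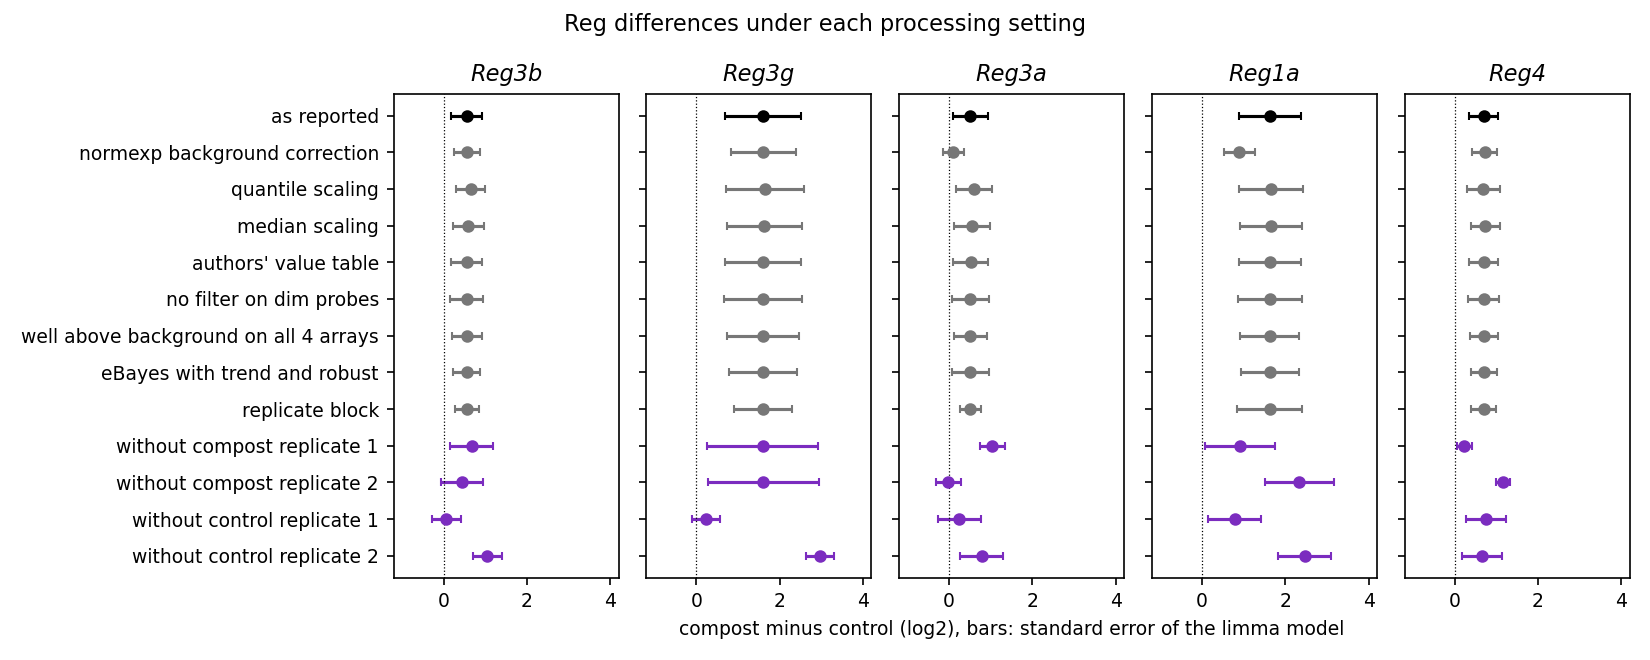
Compost minus control (log2) of each Reg transcript under every setting, with the standard error of the limma model as bars. Another background correction and other scalings leave Reg3b, Reg3g and Reg4 nearly in place, and the filters cannot move a difference. Leaving out 1 rat moves Reg3g between 0.23 and 2.96 and takes Reg3a to -0.014.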

How the data were processed

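Cy3-labelled RNA of 4 rats was hybridised to 1-colour Agilent arrays. The deposited scanner files hold the intensity of each spot, read with Feature Extraction 9.1.3.1 (per the submitters' processing notes), detrended and background-subtracted on a linear scale, per the file headers, and not scaled between arrays. The authors' deposited value table holds the same intensity rounded (largest difference under 0.5%), with column medians of 102 and 73.9 (compost) and 80.2 and 79.4 (control). Its scale is linear, uncentred and unturned.

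Control spots (1639 of 45018) and outlier spots were left out, which removed 31 of 41012 probes. The log2 intensity was averaged per probe and set relative to its array's 75th percentile. Kept were the probes flagged above background on 2 or more arrays. The groups were compared with limma 3.58.1 under R 4.3.3 (lmFit, eBayes, two-sided, Benjamini-Hochberg, threshold 0.05). A simulation with normal noise checked that the fit returned an added shift. How often such a shift would be called is not given here. A gene of a list was its highest kept probe. Names were updated through a GRCr8 table, by accession for 10819 probes, by symbol for 5199 and by synonym for 3485, while 21478 kept the file's name. Promoters matched for 5 of 5 genes and were aligned with Biopython 1.88.

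The members and the 12 gene lists were chosen with earlier results of these data known, so lists are described by counts alone. Named were every Reg probe, the 4 members of smallest unadjusted p in both pathway lists, the 3 highest members of each marker list, and the 3 nearest profiles. The other pathway genes, the acinar enzymes and Guca2b were chosen after their values were seen. Correlation of same-numbered deviations was -0.04. Alternatives were background correction, scaling, dim-probe filter, variance model, replicate block, value table and leaving out each rat. The number of arrays limits the precision.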

Additional observations from a re-analysis of the deposited data

How the results depend on the processing

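The dim-probe filters, the variance model and the replicate block cannot change a log2 difference, and the authors' value table holds the same intensity rounded. Over 12 alternatives, these included, Reg3b, Reg3g, Reg1a and Reg4 stayed higher in compost in all 12. Reg3a did so in 11, with -0.014 without compost replicate 2. No Reg transcript passed in any (lowest limma adjusted p = 0.151, Reg3g without control replicate 2). Leaving out 1 rat gave log2 differences of 0.06 to 1.05 for Reg3b, 0.23 to 2.96 for Reg3g, -0.014 to 1.04 for Reg3a, 0.79 to 2.47 for Reg1a and 0.23 to 1.17 for Reg4, the lone rat being assumed to vary like the other group. Both groups stood apart for 3 to 5 of the 5 then, since 3 arrays separate more readily, and for 4 with quantile scaling. The share of all probes that stood apart under these settings is not given here. The counts therefore cannot be read as a result about the Reg genes. Over all probes, normexp called 1 higher, and leaving out 1 rat called 0 to 2 higher and 0 lower. Without 1 rat, list medians ran from -0.12 to 0.24 (pancreatic acinar), -0.06 to 0.23 (antibacterial), -0.11 to 0.28 (Paneth), -0.04 to 0.27 (goblet), -0.11 to 0.15 (distal), -0.08 to 0.22 (stomach) and -0.15 to 0.29 (smooth muscle), so that the sign of each rests on single rats. They ran from 0.06 to 0.30 (induction axis), 0.11 to 0.19 (enteroendocrine), -0.64 to -0.15 (enterocyte), -0.69 to -0.015 (proximal) and 0.59 to 0.77 (leukocyte) with no change of sign. With the replicate number as a block (replicate block), the differences are the same by construction (1.60 for Reg3g, 1.63 for Reg1a), 0 probes were called and no Reg transcript passed. The numbers share no stated pairing. The causes were not tested. Dim signal limits Reg3a and Reg1a, whose normexp differences were 0.10 and 0.90.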
